A study of Homo sapiens with 8 samples.

Results

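The comparison described here sets MDA-MB-231 cells that received 1-S and UV-A light against cells that received vehicle and stayed in the dark, so compound and light were changed together. It is made of 2 of the 8 libraries of the series, chosen by their labels: the 1-S UV-A library and the vehicle dark library of the second of 2 culture rounds, with 1 library on each side. MDA-MB-231 is a human triple-negative breast cancer line. The series exposed it to (5-oxo-2-dibenzothienylmethyl)triphenylphosphonium (1-SO, round 1) or (2-dibenylthienylmethyl)triphenylphosphonium (1-S, round 2; spelled as in the labels), with or without UV-A. Wells held 600000 cells and were incubated for 24 h with 10 µM compound or with 1% DMSO, the vehicle. A plate was then placed for 30 min under 8 bulbs emitting between 325 and 375 nm, and its partner plate was wrapped in foil, so that light and plate cannot be told apart. Cells of round 2 were at passage 32 to 34 and those of round 1 at passage 8. The other round 2 libraries, vehicle UV-A and 1-S dark, are given beside each value because they show where the combined difference was already present. How long after irradiation the cells were lysed is not given.

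Triphenylphosphonium salts are lipophilic cations that accumulate in mitochondria, driven by the membrane potential. Cells meet damaged or unfolded proteins with the heat shock response, in which the transcription factor HSF1 binds heat shock elements and switches on chaperones. Mitochondrial dysfunction, amino acid shortage and endoplasmic reticulum stress converge on phosphorylation of the translation factor eIF2, after which the transcription factors ATF4 and CHOP (gene DDIT3) act on amino acid and redox genes.

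The vehicle dark library held 22.565 M counted reads and the 1-S UV-A library 19.073 M, with 21.754 M in vehicle UV-A and 21.844 M in 1-S dark. A count of 0 allows up to 3 reads, or 0.133 to 0.157 CPM (counts scaled to library size), and limits and intervals of this kind cover counting error only. Mitochondrially encoded transcripts took 3.02% of the reads of vehicle dark and 2.4% of those of 1-S UV-A, and the 10 most abundant genes took 4.66% and 7.09%. The labelled cell type was checked against its markers: VIM, a mesenchymal filament gene, had a log2 ratio of 0.12 and was not called, whereas 6 of 9 MDA-MB-231 marker genes tested were called lower, among them S100A4 at -1.58, CAV1 at -1.44 and CD44 at -1.14. The luminal genes ESR1, PGR and TFF1 and the epithelial cadherin CDH1 had 1, 13, 7 and 1 reads in vehicle dark and 7, 21, 5 and 1 in 1-S UV-A. Of 6 luminal or epithelial genes tested 2 were called higher, FOXA1 at 1.28 and XBP1 at 1.23, and EPCAM, GATA3, KRT19 and ERBB2 were not called. In bulk RNA, fewer cells of a type and less RNA per cell cannot be told apart.

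Genes with at least 1 FPKM (fragments per kilobase of gene length, scaled to library size) in at least 2 of the 4 round 2 libraries entered the test. They numbered 12229, and 10813 of them are protein-coding. A gene under 1 FPKM in both vehicle libraries enters only through the 1-S libraries, and can be counted higher but hardly lower. The reverse holds for a gene under 1 FPKM in both 1-S libraries. List counts below include such members, for example NUPR1 and CRYAB, which entered through the 1-S libraries. The quasi-likelihood test of edgeR was fitted to the 4 libraries with a term for compound and a term for light, and the sum of the terms is the comparison. Its spread is the departure of the 4 libraries from additive effects, because no treatment has a repeated well: a call at an adjusted p under 0.05 says that a difference is large against that departure, and there is no replicate check. By this rule 2907 genes (23.8%) were called higher and 2980 (24.4%) lower in 1-S UV-A, so a list with about these shares of its members called is at the background. A stricter description counts genes with a CPM ratio of at least 2-fold between the compared libraries, with no test: 1019 (8.33%) were higher and 836 (6.84%) lower. Of the called genes 1534 also passed 2-fold, 857 higher and 677 lower. The median log2 ratio over all tested genes was -0.0041, and the 5th and 95th percentiles were -1.17 and 1.36. The high side held the extremes, with 49 genes at least 16-fold higher, and genes at least 4-fold apart numbered 293 higher and 152 lower.

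**Figure D1:**
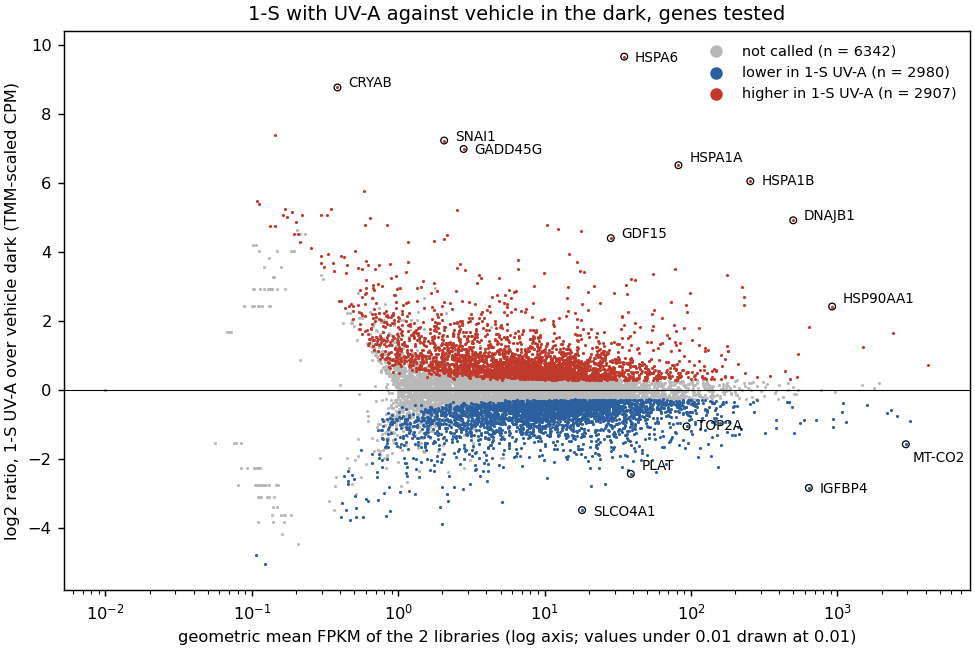
Log2 ratio of 1-S UV-A over vehicle dark (vertical axis, TMM-scaled CPM) against the geometric mean FPKM of the 2 libraries (log axis) for the 12229 genes tested, 1 point per gene, coloured by the edgeR call. HSPA6 lies at 9.67 and SLCO4A1 at -3.49 among the labelled genes.

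The protein-coding genes with the highest ratios, at 5 FPKM or more, were of several kinds. HSPA6, an inducible HSP70 chaperone that is nearly silent in unstressed cells, rose 816-fold. SNAI1, a repressor known for epithelial-mesenchymal transition, rose 151-fold and GADD45G, a stress-induced growth arrest gene, rose 127-fold. These folds are imprecise, since SNAI1 had 6 reads in vehicle dark and 864 in 1-S UV-A, and GADD45G had 7 and 840. Both reached 1 FPKM only in the libraries with 1-S, as did ID2, RGS16, CCL26, CRYAB and NUPR1, described below. ID2, an inhibitor of basic helix-loop-helix factors, rose 37.0-fold, from 0.402 to 15.8 FPKM. The regulators of G protein signalling RGS2 and RGS16 rose 27.5-fold and 22.5-fold, and ARC, an immediate-early gene best known in neurons, rose 25.6-fold. SNAI1 was read at 0.158 FPKM in vehicle cells in the dark, 0.300 with UV-A, 26 in 1-S cells in the dark and 26.9 with UV-A. CCL26, a chemokine of the eotaxin family, had 1 read in vehicle dark and 73 in 1-S UV-A, a ratio of TMM-scaled reads of 83.1 with an exact 95% counting interval of 14.5 to 3328 (54.9-fold with the prior count that the other ratios carry).

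The genes with the lowest ratios at 5 FPKM or more were of several kinds. SLCO4A1, an organic anion transporter, fell from 59.3 FPKM in vehicle dark and 45.7 in vehicle UV-A to 4.88 in 1-S dark and 5.47 in 1-S UV-A, a log2 ratio of -3.49 (SE 0.13, adjusted p = 4.4e-156, edgeR). IGFBP4, which binds insulin-like growth factors, was the most abundant of them and fell from 1678 to 242 FPKM, with 1375 in vehicle UV-A and 253 in 1-S dark. LFNG, a sugar transferase that modifies Notch receptors, fell from 7.36 to 1.04 FPKM. HEG1, a membrane protein of cell junctions, had a log2 ratio of -2.80, PLXNA1, a semaphorin receptor, of -2.74, and LRP5, a Wnt co-receptor, of -2.34. The remaining genes of the lowest 15 were TMEM19, SERTAD4, CPA4, SPRY1, ANGPTL2, ADAMTS15, PLAT, F2RL1 and CDCA7, with log2 ratios from -2.81 to -2.36.

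Most HSP70, HSP110 and HSP40 genes rose. Of 12 HSP70 and HSP110 genes tested 9 were called higher and 0 lower, 8 of them past 2-fold, and the median log2 ratio of the list was 1.68. Of 24 HSP40, small heat shock protein and other HSF1 target genes 20 were called higher and 0 lower, 17 past 2-fold, with a median of 1.66. HSF1 itself was read at 27.6 FPKM in vehicle dark and 30.5 in 1-S UV-A and was not called. In both lists the median of the 1-S dark library over vehicle dark, 1.70 and 1.59, was nearly that of the combined treatment.

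HSPA6 was read at 1.2 FPKM in vehicle cells in the dark, 0.892 with UV-A, 987 in 1-S cells in the dark and 1022 with UV-A (gene ENSG00000173110, chromosome 1, 161524540 to 161526910, plus strand). Both libraries with 1-S are high and both vehicle libraries are near the low end of what was tested. HSPA1A, the main stress-inducible HSP70, was read at 8.39, 8.41, 810 and 801 FPKM in the same order, and HSPA1B at 30.5, 36.3, 2223 and 2111. HSPA1A and HSPA1B are near-identical copies and HSPA1L lies beside them, so the split of reads among them is uncertain, and HSPA6 has a close pseudogene copy, HSPA7. HSPA8, the constitutive HSP70, changed far less, from 368 to 787 FPKM (log2 ratio 1.04, SE 0.14, adjusted p = 3.8e-13, edgeR). HSPH1, an HSP110 that exchanges nucleotide on HSP70, rose 6.97-fold from 36.3 to 263 FPKM.

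Among the partners of HSP70, DNAJB1, an HSP40 that stimulates its ATPase, went from 88.9 FPKM in vehicle dark and 98 in vehicle UV-A to 2646 in 1-S dark and 2799 in 1-S UV-A, 30.3-fold (SE of the log2 value 0.15, adjusted p = 8.7e-236, edgeR). HSPB1, a small heat shock protein, rose 7.98-fold and BAG3, which couples HSP70 to autophagy, rose 6.45-fold. CRYAB, the small heat shock protein alpha-B crystallin, had 1 read in vehicle dark and 586 in 1-S UV-A, a ratio of TMM-scaled reads of 667 with an exact 95% counting interval of 119 to 26400 (439-fold with the prior count that all other ratios carry). DNAJA1 rose 2.20-fold, a smaller change than that of DNAJB1. Of 12 HSP90 genes and co-chaperones 7 were called higher and 2 lower, and 4 passed 2-fold, with a median of 0.42. HSP90AA1, the inducible cytosolic HSP90, rose from 390 to 2168 FPKM and HSP90AB1, the constitutive form, from 952 to 2325, whereas HSP90B1, its endoplasmic reticulum relative, had a log2 ratio of -0.27 and was not called. The HSP90-activating co-chaperone AHSA1 was at 1.58 and STIP1, which links HSP70 to HSP90, at 1.2. In the model over all 8 libraries 5 of the 7 higher calls and 1 of the 2 lower calls remained. That model holds the same single 1-S UV-A library and takes its spread from the vehicle libraries of both rounds. A call that remained in it, here and below, is therefore not a repeat of the treatment.

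Upstream sequences of chaperone genes are shown because most HSP70, HSP110 and HSP40 genes rose and because HSF1 binds to paired units of GAA and TTC. The 250 bases before the RefSeq start (GRCh38.p14) are printed 5′ to 3′ on the gene's strand, in lower case, with each match to GAANNTTC or TTCNNGAA in capitals: HSPA6 (chr1:161524290-161524539, plus strand), HSPA1A (chr6:31815293-31815542, plus), DNAJB1 (chr19:14518398-14518647, minus) and HSP90AA1 (chr14:102087045-102087294, minus).
HSPA6: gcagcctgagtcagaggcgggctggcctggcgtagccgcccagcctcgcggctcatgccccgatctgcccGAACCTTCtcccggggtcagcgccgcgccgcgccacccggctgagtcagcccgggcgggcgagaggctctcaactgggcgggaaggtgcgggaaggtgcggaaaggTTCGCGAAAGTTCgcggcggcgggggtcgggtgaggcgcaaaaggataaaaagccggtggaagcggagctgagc
HSPA1A: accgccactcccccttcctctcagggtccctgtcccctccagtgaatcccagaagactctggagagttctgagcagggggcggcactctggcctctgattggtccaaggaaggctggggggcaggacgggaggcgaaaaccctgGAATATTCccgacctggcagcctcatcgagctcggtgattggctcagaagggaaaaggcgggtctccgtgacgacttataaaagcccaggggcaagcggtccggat
DNAJB1: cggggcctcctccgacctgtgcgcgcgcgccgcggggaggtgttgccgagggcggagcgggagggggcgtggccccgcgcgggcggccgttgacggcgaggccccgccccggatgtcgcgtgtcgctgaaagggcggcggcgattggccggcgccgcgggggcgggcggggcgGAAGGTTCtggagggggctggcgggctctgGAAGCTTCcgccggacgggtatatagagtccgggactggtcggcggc
HSP90AA1: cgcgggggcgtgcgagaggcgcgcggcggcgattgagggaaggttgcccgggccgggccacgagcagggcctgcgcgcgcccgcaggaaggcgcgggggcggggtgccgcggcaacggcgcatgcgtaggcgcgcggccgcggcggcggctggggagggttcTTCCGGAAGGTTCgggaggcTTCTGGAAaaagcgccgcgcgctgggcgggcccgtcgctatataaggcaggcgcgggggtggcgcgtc
The HSPA6 stretch holds 3 matches, beginning 180, 74 and 69 bases before the start, of which the last 2 share bases. HSPA1A holds 1 match at 106 bases, DNAJB1 holds 2 at 77 and 47 bases, and HSP90AA1 holds 3 at 88, 83 and 68 bases, the first 2 sharing bases. DNAJB1 has 3 RefSeq windows and HSP90AA1 has 2, and for each the window with the most matches was printed. Both motifs read the same on both strands. Searched over windows of 300 bases (250 before and 50 after a start), at least 1 of the pair was found for 16.2% of the 27305 genes with a window and for 13.5% of the 8647 tested genes with one. It was found for 6 of the 9 HSP70 and HSP110 genes called higher, for 11 of 18 of the HSP40 list called higher and for 3 of 6 of the HSP90 list called higher. It was found for 0 of 2 members not called in each of these lists and for 0 of 2 of the HSP90 list called lower. In the list of the TRiC chaperonin, described below, it was found for 2 of 4 members called higher, 0 of 1 called lower and 2 of 7 not called. HSPH1 held none in its window. The HSP40 list includes genes chosen as HSF1 targets, so matches in it were in part given by that choice. By the gene models of the count table, HSPA1A begins at 31815464, inside the printed stretch, and DNAJB1 and HSP90AA1 have longer forms that begin upstream of it. Genes with several starts have several windows and so more chances of a match, and a match describes letters, not binding.

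**Figure D2:**
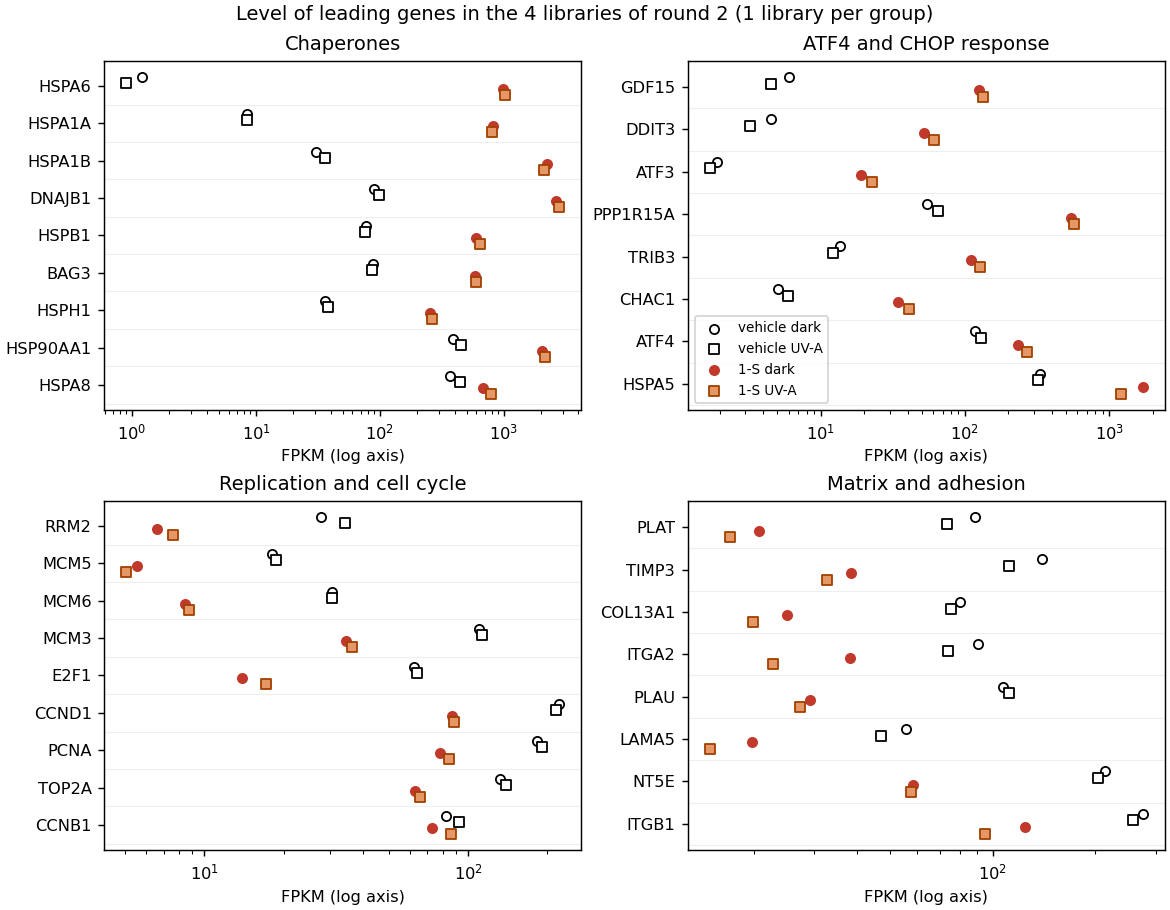
FPKM (log axis) in each of the 4 libraries of round 2 for chaperone genes, ATF4 and CHOP response genes, replication and cell cycle genes, and matrix and adhesion genes, 1 point per library and no replicates. For HSPA6 the 2 libraries with 1-S lie at 987 and 1022 and the 2 vehicle libraries at 1.2 and 0.892.

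The other protein quality control lists had medians near 0. Of 30 proteasome subunits 0 were called higher and 7 lower, with a median of -0.10, and 2 of the lower calls remained over 8 libraries. Of 14 subunits of the TRiC chaperonin, which folds actin and tubulin, 5 were called higher and 1 lower, of which 2 and 0 remained. Among alpha and beta tubulins 2 of 8 were higher and 2 lower. Of 17 mitochondrial chaperones and proteases 6 were called higher and 5 lower: HSPE1 at 1.79, HSPD1 at 1.28 and HSPA9 at 1.13, the mitochondrial HSP10, HSP60 and HSP70, were those past 2-fold.

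Most members of the ATF4 and CHOP list rose. Of 37 members tested 31 were called higher and 2 lower, 25 of them passed 2-fold upward and 0 downward, and the median log2 ratio was 1.46; all 31 higher calls remained in the 8-library model and neither of the lower ones did. The median of 1-S dark over vehicle dark was 1.56 and that of vehicle UV-A over vehicle dark 0.05. Among the regulators, DDIT3 (CHOP) was read at 4.48 FPKM in vehicle cells in the dark, 3.23 with UV-A, 52.2 in 1-S cells in the dark and 61.1 with UV-A, 13.1-fold, and ATF3, a stress-induced repressor, rose 11.5-fold. ATF4, whose protein is controlled mainly at translation, rose from 118 to 270 FPKM, 2.19-fold. TRIB3, a pseudokinase induced by CHOP, rose 9.07-fold from 13.5 to 127 FPKM. PPP1R15A, which directs dephosphorylation of eIF2, rose 10.2-fold from 54.2 to 573 FPKM.

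GDF15, a secreted stress signal, was read at 6.03, 4.54, 125 and 133 FPKM in vehicle cells (dark, UV-A) and 1-S cells (dark, UV-A) (log2 ratio 4.4, SE 0.14, adjusted p = 6.4e-226, edgeR). NUPR1, a small stress-induced chromatin protein, rose from 0.437 to 9.54 FPKM. CHAC1, which breaks down glutathione, rose from 5.02 to 41.2 FPKM and SESN2, an inhibitor of mTORC1, from 7.39 to 43.5. DDIT4, another mTORC1 inhibitor, rose 3.65-fold. ASNS, asparagine synthetase, was called higher, but had few reads in this table, at 0.219 FPKM in vehicle dark and 1.27 in 1-S UV-A; vehicle dark of round 1 was at 41.5 FPKM in its own table, so these values need not be the transcript's level. SLC7A11, the cystine carrier, stood apart from the others: it was at 16.6 FPKM in vehicle dark, 50.1 in 1-S dark and 34.2 in 1-S UV-A, so the combined treatment lay between them (1.99-fold). The upstream sequence of CHAC1 (chr15:40953221-40953470, plus strand, GRCh38.p14) is shown for the composite C/EBP-ATF element that ATF4 binds, searched as TGATGNAA on both strands, with its match, on the opposite strand, in capitals.
CHAC1: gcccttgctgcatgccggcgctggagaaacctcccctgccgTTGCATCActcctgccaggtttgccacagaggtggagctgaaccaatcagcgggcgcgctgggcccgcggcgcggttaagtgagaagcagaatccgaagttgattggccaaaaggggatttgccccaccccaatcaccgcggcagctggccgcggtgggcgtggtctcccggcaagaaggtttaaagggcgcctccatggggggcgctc
The match begins 209 bases before the RefSeq start, and the gene model of the count table begins farther upstream. TGATGNAA was found for 4.46% of all genes with a window and 2.54% of tested ones, and for 6 of the 21 called-higher members of the list with a window, 1 of 3 that were not called and 0 of 2 called lower.

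The endoplasmic reticulum list did not move as a whole: 8 of 27 members were called higher, 7 lower, 5 passed 2-fold upward and the median was 0.01. HSPA5 (BiP), the main chaperone of the reticulum, was at 332 FPKM in vehicle cells in the dark, 319 with UV-A, 1716 in 1-S cells in the dark and 1219 with UV-A, and HERPUD1, a degradation factor, rose 4.82-fold. Among 24 autophagy and lysosome genes 14 were called higher and 3 lower, with a median of 0.41. Those past 2-fold were MAP1LC3B and GABARAPL1, which coat autophagosomes, SQSTM1, a cargo receptor, and TFEB, a lysosomal transcription factor, at 1.81, 1.58, 1.51 and 1.19. The lysosomal membrane genes LAMP2 at -0.71 and LAMP1 at -0.54 and the protease gene CTSB at -0.66 fell.

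Among targets of NRF2, the antioxidant transcription factor, 14 of 26 were called higher and 5 lower, 4 passed 2-fold and the median was 0.36. HMOX1, haem oxygenase, was read at 5.14, 6.61, 50.2 and 58.5 FPKM in vehicle cells (dark, UV-A) and 1-S cells (dark, UV-A), 10.9-fold. The ferritin genes FTL and FTH1, which store iron and have many pseudogenes that can share reads, rose 3.11-fold and 3.47-fold. NQO1, a quinone reductase often used as a NRF2 reporter, was at 52.9 FPKM in vehicle dark and 64.1 in 1-S UV-A and was not called. PGD, an enzyme that supplies NADPH, went the other way at -0.53. The antioxidant response element, searched as TGACNNNGC, was found for 19.5% of tested genes with a window, for 3 of 11 called-higher and 3 of 3 called-lower members of the list, and for 0 of 5 that were not called. Of 17 peroxidases and dismutases 2 were called higher and 6 lower.

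Immediate-early genes were higher. Of 24 EGR, IER, NR4A and KLF genes 18 were called higher and 2 lower, 15 past 2-fold, with a median of 1.36, and of 13 AP-1 subunits 9 were called higher and 1 lower with a median of 0.71. FOS was read at 3.52 FPKM in vehicle cells in the dark, 4.98 with UV-A, 77.1 in 1-S cells in the dark and 88.8 with UV-A (24.3-fold, adjusted p = 8.3e-223, edgeR). EGR1 rose 5.47-fold and JUN 2.63-fold, and the orphan nuclear receptor gene NR4A1 had a log2 ratio of 4.33. These genes are known to rise within minutes of a stimulus, and the members named were high in both libraries with 1-S.

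The feedback inhibitors of MAP kinase signalling moved in both directions, 8 of 18 called higher and 7 lower. DUSP1, a nuclear phosphatase of stress kinases, rose 11.3-fold from 22.6 to 265 FPKM, and DUSP2 and DUSP8 stood at 3.49 and 3.26. DUSP6, the cytoplasmic ERK phosphatase, fell from 117 to 42.8 FPKM and DUSP4 from 159 to 51.3, and SPRY1, a receptor tyrosine kinase inhibitor, fell from 24.7 to 4.37. The EGF receptor and its ligands gave 2 higher and 3 lower calls among 10 genes.

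Inflammatory genes were mixed and interferon-stimulated genes were mostly higher. Of 19 NF-kB cytokines and inhibitors 11 were called higher and 5 lower: CXCL3 and CXCL2, neutrophil chemokines, were at 2.57 and 2.48, TNFAIP3, an NF-kB inhibitor, at 2.34 and IL6 at 1.88 (call lost with DESeq2), against CSF2 at -2.25, LIF at -1.40 and IL11 at -1.19. Of 22 interferon-stimulated genes 13 were called higher and 2 lower, 10 past 2-fold, with a median of 0.78. IFIT2, an antiviral RNA-binding protein, was read at 16.8 FPKM in vehicle cells in the dark, 15.9 with UV-A, 193 in 1-S cells in the dark and 180 with UV-A, and OASL rose 13.7-fold. OAS3, a sensor of double-stranded RNA, fell from 5.30 to 2.72 FPKM. The interferon genes IFNB1 and IFNL1 themselves had 0 reads in both compared libraries.

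Of 25 checkpoint and growth arrest genes 11 were called higher and 2 lower. The members past 2-fold were GADD45G, GADD45B, BTG2, SESN2, GADD45A, CDKN1A, BBC3 and PMAIP1, several of which are known stress-induced genes, whereas MDM2, BAX, FAS, DDB2 and XPC were not called. CDKN1A, the p21 inhibitor of cyclin-dependent kinases, was read at 41.7, 41.1, 185 and 209 FPKM in vehicle cells (dark, UV-A) and 1-S cells (dark, UV-A). MDM2 was read at 4.91, 5.13, 4.84 and 4.73 FPKM in the same order. In the BCL2 family 7 of 14 were called higher and 1 lower: the killer genes BIK at 2.89, BBC3 at 1.75 and PMAIP1 at 1.23 rose, and BCL2L1, which protects cells, fell by 1.19. MCL1, which also protects cells, rose with a log2 ratio of 0.70, and the killer genes BCL2L11, BAK1 and BMF rose with 0.68, 0.69 and 0.76.

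DNA replication genes fell as a list. Of 33 tested 30 were called lower and 0 higher, 17 past 2-fold, the median log2 ratio was -1.02, and 29 of the 30 remained in the 8-library model. RRM2, the regulated subunit of ribonucleotide reductase, was read at 27.7 FPKM in vehicle cells in the dark, 34.0 with UV-A, 6.63 in 1-S cells in the dark and 7.59 with UV-A (log2 ratio -1.92, SE 0.13, adjusted p = 8.8e-47, edgeR). MCM5 and MCM3, subunits of the replicative helicase, stood at -1.90 and -1.66. PCNA, the sliding clamp, fell from 182 to 84.9 FPKM. The vehicle UV-A median of the list was 0.15 and the 1-S dark median -1.05.

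Regulators of entry into S phase moved in both directions. E2F1, which drives replication genes, fell from 62.2 to 17.1 FPKM, E2F2 was at -2.93, CCNE2 at -2.10 and CCND1, cyclin D1, fell from 222 to 88.5 FPKM. The inhibitor CDKN1C was read at 2.96 FPKM in vehicle dark and 32.7 in 1-S UV-A, a 10.6-fold rise, beside the rise of CDKN1A. Of the other inhibitors CDKN2C was called lower at -0.29, and CDKN1B at 0.17 and CDKN2D at -0.18 were not called. CCND2, cyclin D2, rose with a log2 ratio of 2.00. In all 12 of 23 were called lower and 4 higher. Genes of G2 and mitosis fell less: 23 of 37 were called lower and 0 higher, 2 past 2-fold, at a median of -0.43, and 13 of the lower calls remained over 8 libraries. CCNB1, cyclin B1, was at 82.4, 92.1, 73.3 and 86.4 FPKM in the 4 libraries and was not called.

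TOP2A, the topoisomerase that untangles chromosomes before division, was at 132, 139, 62.9 and 65.8 FPKM in vehicle cells (dark, UV-A) and 1-S cells (dark, UV-A). Its upstream sequence (chr17:40417897-40418146, minus strand, GRCh38.p14) is shown for the cell cycle homology region, a repressor site of G2 and mitosis genes, searched as TTTGAA on both strands and in capitals here. TOP2A was taken as the called-lower mitosis gene with the lowest ratio among those whose window holds TTTGAA. That it holds a match was thus fixed by the choice.
TOP2A: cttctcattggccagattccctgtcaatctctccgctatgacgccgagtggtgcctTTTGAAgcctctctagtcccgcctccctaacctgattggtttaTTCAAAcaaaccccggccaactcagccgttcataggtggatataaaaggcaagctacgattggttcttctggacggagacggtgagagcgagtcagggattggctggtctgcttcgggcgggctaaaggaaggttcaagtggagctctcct
Matches begin 194 and 151 bases before the RefSeq start, and the gene model of the count table begins inside the stretch. TTTGAA was found for 15 of 20 called-lower members of the mitosis list with a window, for 6 of 10 members that were not called, for 13.3% of tested genes and for 18.2% of all genes with a window.

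Mitochondrially encoded mRNAs were lower in 11 of 13 cases and higher in 0 (3 past 2-fold, median -0.75), and 6 of the 11 calls remained over 8 libraries. MT-ND6, a complex I subunit, was read at 326 FPKM in vehicle cells in the dark, 345 with UV-A, 95.3 in 1-S cells in the dark and 71.0 with UV-A, a log2 ratio of -2.25. It is the one subunit encoded on the other strand of the mitochondrial genome, and the use of strand in counting is not stated in any source used here. MT-CO2, a subunit of cytochrome oxidase, fell from 4971 to 1728 FPKM. MT-CO1 fell from 4187 to 2320 FPKM in the round 2 test, with an adjusted p of 0.054 in the 8-library edgeR model, where the call was lost. MT-ND4L was not called at 449, 582, 597 and 404 FPKM. Of the mitochondrial ribosomal RNAs, in RNA selected for poly(A) tails, MT-RNR2 was called higher at 3206, 2971, 6036 and 5454 FPKM. MT-RNR1 was not called, at 1377, 2468, 1632 and 1569 FPKM (log2 ratio 0.13).

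For 13 of 13 of these mRNAs the 1-S UV-A library lay below the value that the other 3 libraries give when effects of compound and light are added, by a median of 0.45 on the log2 scale, and edgeR called the departure for 0 of them. The 13 are cut from common precursors and were read in the same library, so their agreement is that of 1 library. Nuclear genes of the respiratory chain moved little: 23 of 54 were called lower and 2 higher, with a median of -0.20, and 11 and 2 of those calls remained over 8 libraries. Of 73 cytosolic ribosomal protein genes 14 were called higher and 1 lower at a median of 0.19, and 0 of the 14 remained. Of 28 ribosome biogenesis genes 3 were higher and 10 lower.

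Glycolysis and lipid synthesis genes were lower. Of 21 glycolysis genes tested 13 were called lower and 3 higher, with a median of -0.51. LDHA, which makes lactate, was read at 230 FPKM in vehicle cells in the dark, 222 with UV-A, 84.2 in 1-S cells in the dark and 97.1 with UV-A, and ENO1, enolase, fell from 767 to 405. The glucose transporter genes parted, SLC2A1 at -1.07 and SLC2A3 at 1.43. ALDOA and LDHB, enzymes used by nearly every cell, had 13 to 32 and 12 to 40 reads in the 4 libraries and did not reach the test, so a low count in this table need not mean a low transcript level. Of 27 cholesterol and fatty acid synthesis genes 19 were called lower and 0 higher, 5 past 2-fold, with a median of -0.52. SCD, a fatty acid desaturase, fell from 327 to 139 FPKM. Hypoxia-type targets gave 8 higher and 7 lower calls among 18, led by ADM, a vasodilator peptide, at 2.82.

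Matrix and adhesion genes showed the lowest median of any list described, -1.27. Of 25 collagens, laminins and integrins 21 were called lower and 1 higher, 16 past 2-fold downward, and all 21 remained lower over 8 libraries. ITGB1, the shared beta subunit of many integrins, was read at 275 FPKM in vehicle cells in the dark, 257 with UV-A, 124 in 1-S cells in the dark and 94.6 with UV-A. ITGA2, the collagen receptor subunit that pairs with it, was read at 90.3, 73.7, 38.3 and 22.7 FPKM, each library lower than the one before. COL13A1, a membrane collagen, fell from 80.3 to 19.8 FPKM and LAMA5, a laminin chain, from 55.5 to 14.8. The exception was COL1A1, the fibrillar collagen chain, which rose from 1.45 to 6.39 FPKM. It is also a fibroblast marker, and the fibroblast genes COL1A2, COL3A1, DCN, LUM, FAP and PDGFRA had 11 or fewer reads in both compared libraries. PDGFRB, the other fibroblast gene that reached the test, had a log2 ratio of -0.64 and was not called.

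Among matrix proteases and inhibitors 7 of 14 were called lower, 6 past 2-fold, and 4 higher. PLAU and PLAT, the urokinase and tissue plasminogen activators, fell from 107 to 27.2 and from 88.6 to 17.0 FPKM, and TIMP3, a protease inhibitor held in the matrix, fell from 139 to 32.6. Of 17 targets of YAP and TEAD, the transcription factors that respond to cell spreading, 15 were called lower and 1 higher with a median of -0.70. NT5E, the ecto-nucleotidase CD73, was at 214, 204, 58.5 and 57.4 FPKM in the 4 libraries and ANKRD1 at 485, 492, 186 and 211. TGF-beta and BMP genes were split, 8 of 17 higher and 6 lower, with the receptors TGFBR2 at -1.37 and TGFBR1 at -0.84 among the lower. In the Notch pathway the ligand JAG1 at -1.60, the receptor NOTCH2 at -0.83 (call lost with DESeq2 and limma) and LFNG fell, and the target HEY1 at 2.82 and the ligand DLL4 at 2.22 rose.

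Of 6 metallothionein and zinc genes tested 3 were called higher, and MT1X, a metal-binding protein, was at 0.150, 0.882, 1.88 and 4.64 FPKM. Aryl hydrocarbon receptor targets gave 2 higher and 2 lower calls among 8, with CYP1A1, its classical target, at -0.88, a call lost in the 8-library model (adjusted p = 0.48, edgeR), with DESeq2 and with limma. The core of the dioxin response element, GCGTG, was found for 59.5% of tested genes with a window and for 1 of the 2 higher and both lower members. Histone genes, most of whose transcripts lack poly(A) tails, gave 7 lower and 0 higher calls among 16.

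**Figure D3:**
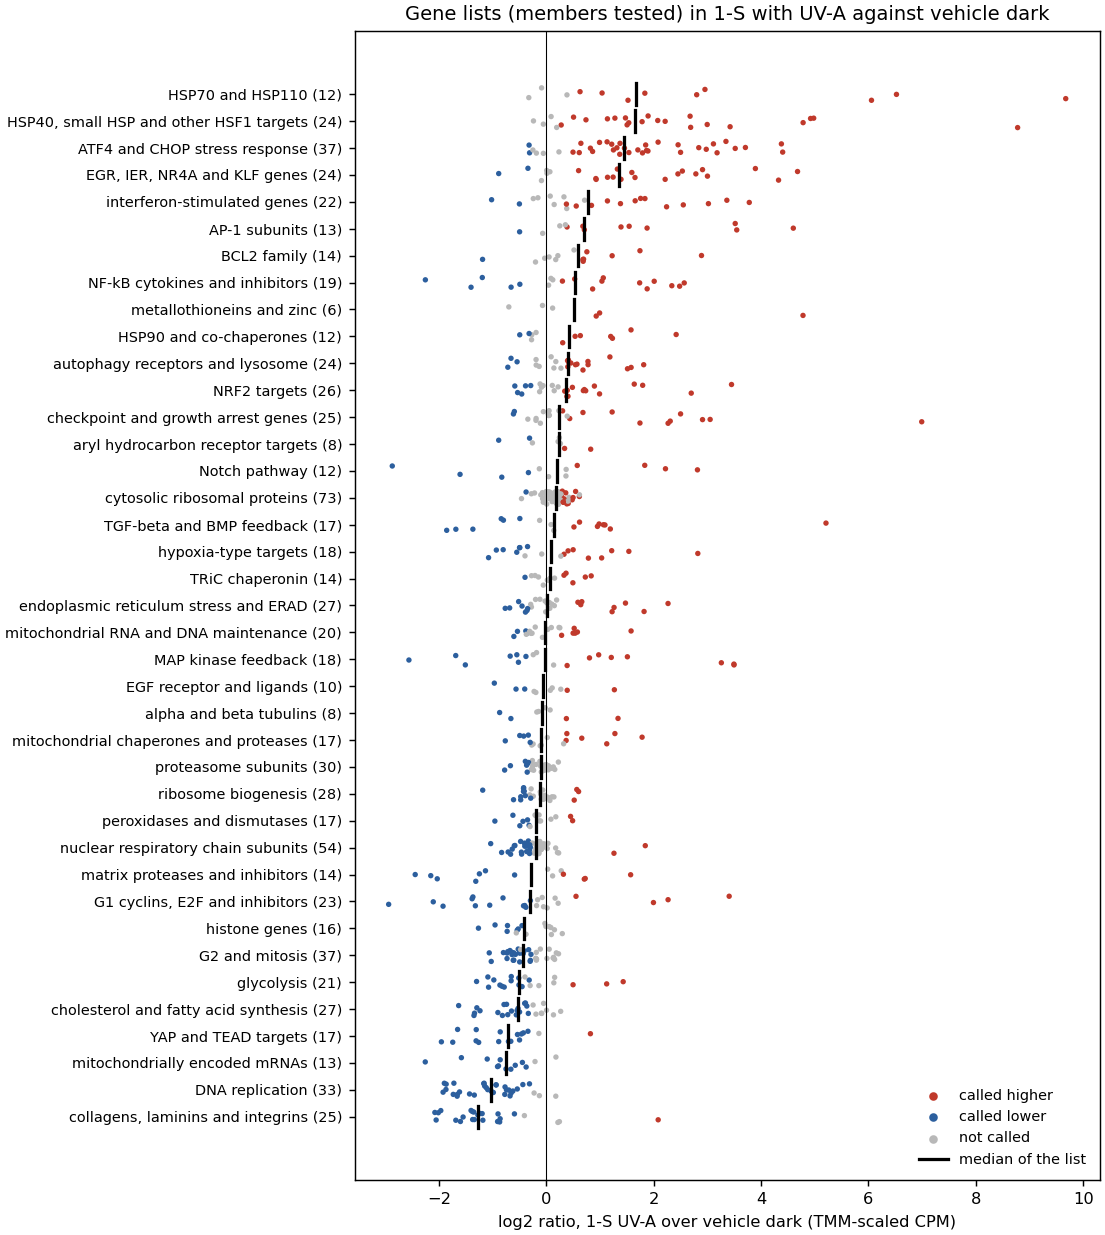
Log2 ratio of 1-S UV-A over vehicle dark (TMM-scaled CPM) for the tested members of each gene list, 1 point per gene, red where called higher, blue where called lower and grey where not called, with the list's median as a black bar and the number tested in brackets. Medians run from 1.68 for HSP70 and HSP110 to -1.27 for collagens, laminins and integrins.

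In number, nearly as many genes differed in 1-S dark as in 1-S UV-A. Against the same vehicle dark library 1750 tested genes were at least 2-fold apart in 1-S dark, 290 in vehicle UV-A and 1855 in 1-S UV-A. These ratios share their control library and are set side by side as values only. Between the 1-S libraries themselves, 275 genes were at least 2-fold apart. The departure of 1-S UV-A from the sum of separate effects had its 5th and 95th percentiles at -0.59 and 0.53 on the log2 scale, and 438 genes were past 2-fold, but edgeR in the 8-library model called 0 genes for it, with 256 at an unadjusted p under 0.05, and DESeq2 called 0 with 36. In limma, on the same libraries, 8 genes were called, all below the sum.

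The light term of the additive fit, which compares the irradiated with the dark plate over vehicle and 1-S cells together and was looked at after the values were seen, called 6 genes (0.0491%) higher and 76 (0.621%) lower. Of the 76, 70 code for protein, 58 were also called lower in the combined comparison and 6 higher. Over all tested genes 24.4% were called lower and 23.8% higher in that comparison. The light term is part of the combined sum in the same fit, so the overlap of lower calls was partly given in advance. The median length of the 76, as deposited and used for FPKM, was 8.67 kb against 4.67 kb over all tested genes. It is not the genomic span: HEG1 has a length of 9925 bases but lies from position 124965710 to 125055958. Longer transcripts collect more reads, and whether that bears on these calls was not tested. Genes named here were chosen after their values were seen. NEAT1, a nuclear noncoding RNA, was read at 9.27 FPKM in vehicle cells in the dark, 6.25 with UV-A, 28.8 in 1-S cells in the dark and 15.2 with UV-A, so it was lower in the irradiated library of each pair and higher in both 1-S libraries (light term -0.75, adjusted p = 1e-12, edgeR). MALAT1, another nuclear noncoding RNA, had the same order at 53.8, 48.6, 196 and 126 FPKM. Among matrix and surface genes, ITGA2 had a light term of -0.52, NOTCH2 of -0.53, HEG1 of -0.49 and COL12A1 of -0.48. COL12A1, a fibril-associated collagen, was read at 12.3, 12.3, 9.67 and 4.84 FPKM and NOTCH2 at 31.2, 29.5, 36.0 and 18.3, so the larger differences were in the 1-S pair. Of the collagen, laminin and integrin list 9 genes were in the lower light group. Among the 6 higher genes, GADD45B was at 0.33, NFKBIZ, an NF-kB regulator, at 0.40 and MT1X at 1.55. The others were MT-RNR1 at 0.39, MRPL57 at 0.40 and the histone gene HIST1H1C at 0.46. MT-RNR1 was higher with UV-A only in vehicle cells, at 1377 and 2468 FPKM, against 1632 and 1569 in 1-S cells. In the combined comparison HIST1H1C was called lower, and MT-RNR1 and MRPL57 were not called. Light and plate cannot be told apart in these values.

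**Figure D4:**
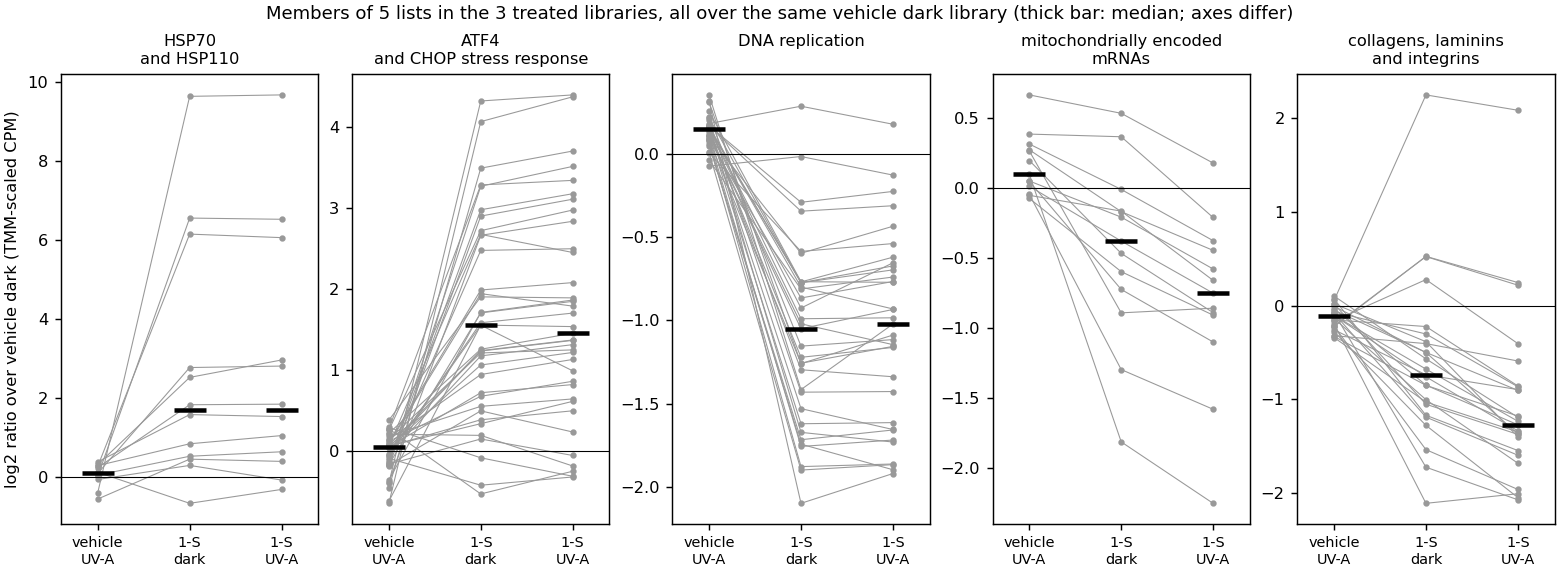
Log2 ratio over the shared vehicle dark library (TMM-scaled CPM, vertical axes that differ between panels) in irradiated vehicle cells, dark 1-S cells and irradiated 1-S cells for the tested members of 5 lists, 1 line per gene and a thick bar at the median. The medians of the HSP70 and HSP110 list are 0.10, 1.70 and 1.68, and those of the collagen, laminin and integrin list -0.11, -0.74 and -1.27.

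The irradiated 1-S cells were also set against irradiated 1-SO cells at the same dose, 10 µM, and time, each relative to vehicle, over the 11686 genes tested in both rounds. Per their labelled names the compounds differ in the oxidation of the sulfur atom of the dibenzothiophene, which 1-SO carries as an oxide. Compound and round cannot be told apart here, since each compound was used in 1 round, with cells at other passages. The difference was called higher for 1-S at 287 genes (2.46%) and lower at 164 (1.4%), with p-values adjusted over all genes. Ratios below are of the irradiated library over vehicle dark of its own round, whereas differences are fitted by the 8-library model, in which both rounds share the light response of vehicle, so a difference is not the subtraction of the printed ratios. Chaperones differed widely: 8 of 12 HSP70 and HSP110 genes and 16 of 24 of the HSP40 list were higher under 1-S and 0 lower. HSPA1A stood at a log2 ratio of 6.52 with 1-S and 0.48 with 1-SO (difference 6.11, SE 0.31, adjusted p = 3.1e-12, edgeR), and DNAJB1 at 4.92 and 0.04. HSPA6 was high with both, at 9.67 and 3.54, and the fitted difference was 7.22 (SE 0.50, adjusted p = 7.1e-10, edgeR). HSPA8 was at 1.04 with 1-S and -0.97 with 1-SO. Interferon-stimulated genes were higher under 1-S in 8 of 22 cases and lower in 0, with IFIT2 at 3.36 against -0.48.

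Of 37 ATF4 and CHOP genes 7 were called higher and 2 lower for that difference, and the list medians were 1.46 with 1-S and 1.22 with 1-SO. ATF4 itself stood at 1.13 and 0.97, a difference of 0.04 (SE 0.27, adjusted p = 0.97, edgeR), CHAC1 at 2.98 and 2.4 (difference 0.69, SE 0.27, adjusted p = 0.20, edgeR), and DDIT4 at 1.87 and 1.84. GDF15 differed, at 4.4 and 2.20. SLC7A11 was lower under 1-S, 0.99 against 2.86 (fitted difference -1.21, SE 0.34, adjusted p = 0.044, edgeR). Of 33 DNA replication genes RRM2 alone was called, lower under 1-S, and the list medians were -1.02 and -1.41. Of 13 mitochondrial mRNAs 3 were called, MT-ND6, MT-ND3 and MT-ND4L, all less reduced under 1-S; the list medians were -0.75 and -1.64. Of the collagen, laminin and integrin list 1 gene was called higher and 4 lower, and ITGA2 stood at -2.05 with 1-S and -0.06 with 1-SO. A missed threshold does not show that the compounds act alike.

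**Figure D5:**
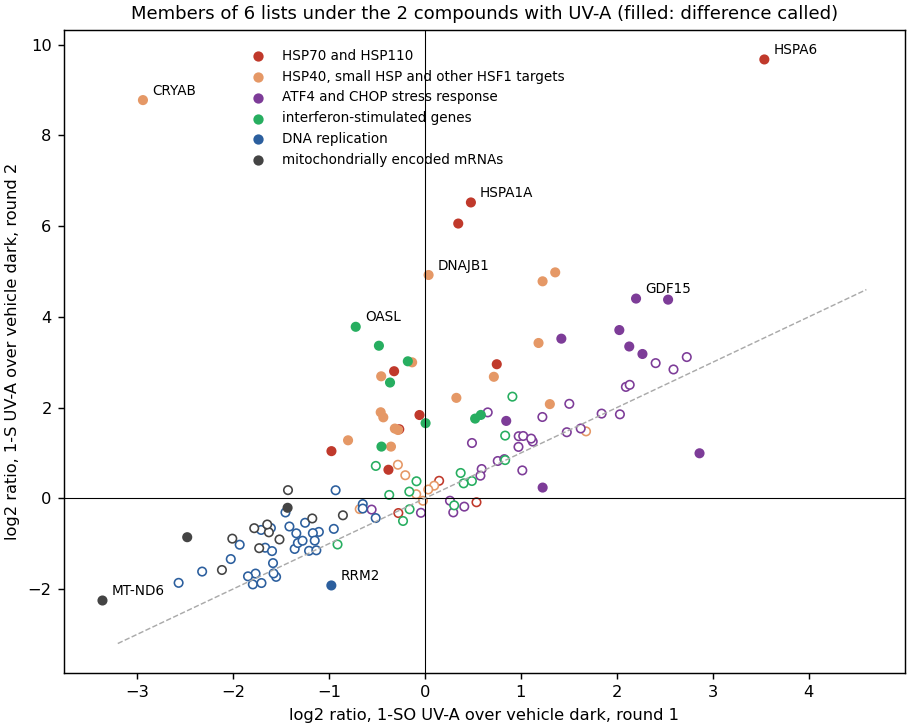
Log2 ratio over vehicle dark with UV-A for 1-S (round 2, vertical axis) and 1-SO (round 1, horizontal axis) for members of 6 lists, 1 point per gene, filled where edgeR called the difference between compounds, with a dashed line of equal ratios. HSPA1A lies at 6.52 for 1-S and 0.48 for 1-SO, and MT-ND6 at -2.25 and -3.36.

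In the authors' deposited table for this pair of libraries 866 genes had an adjusted p under 0.05, 530 of them higher in 1-S UV-A and 336 lower. Of these, 600 were among the genes tested here, and all 600 were called here in the direction given by the authors' deposited table and were at least 2-fold apart. Both compare the same 2 libraries, so the shared direction was given in advance and is no separate check. Most of the 5887 genes called here were not among the 866, for example MT-CO1 and HSP90AB1.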

How the data were processed

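Per the labels' protocols, poly(A) RNA was sequenced from 8 cultures of MDA-MB-231 cells, 1 library per treatment and round. The authors' deposited tables hold read counts per gene, whole numbers and not normalized, for 58676 genes in round 2. The FPKM values were also deposited by the authors, and computing them again from the counts and gene lengths gave the same values within a relative 6.9e-07. The authors' deposited comparison table gives log2 fold changes, p-values and adjusted p-values per the file headers, by a method that they do not state. Per the submitters' processing notes, tools were HTSeq 0.6.1, STAR 2.5, TopHat, edgeR 3.16.5, DESeq2 and STAR-Fusion, with builds hg38 and hg19, and their roles are not stated there. Use of strand in counting is not stated either.

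Counts of the 4 round 2 libraries with at least 1 FPKM in at least 2 libraries were scaled by TMM factors and fitted with edgeR 4.0.16 (R 4.3.3), with additive terms for compound and light. This leaves 1 residual degree of freedom, and edgeR's moderation estimated an infinite prior, so that genes of like abundance share 1 spread (biological coefficient of variation 7.12%) and p-values are very small. Genes were called at a Benjamini-Hochberg adjusted p under 0.05. Log2 ratios and folds are those of the 2 libraries' TMM-scaled CPM with a prior count of 0.5, and SEs are those of the fit. The fitted value differed from the library ratio by over 0.2 for 319 genes, and 0 called genes had the other sign. A model of all 8 libraries, with terms for round, light and each compound group, served as an alternative and for the differences from additivity and between compounds, using genes shared by the rounds (45341 identifiers). Its 1 residual degree of freedom is the difference between rounds in the light response of vehicle cells, so it adds no further 1-S library. No wells repeat a treatment within a round, so p-values measure only the spread between these libraries. The main fit was also run on counts simulated with additive effects and the same dispersion for every gene. Real counts need not have these properties, so that run does not give the error rate of the calls here. Alternatives used DESeq2 1.42.0 and limma 3.58.1.

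Genes named are the 15 highest and 15 lowest protein-coding calls at 5 FPKM or more in the higher library, up to 6 called members of each list with the largest ratio and members needed for a role, and the 6 most abundant calls in 1-S UV-A, which were MT-RNR2, FTL, DNAJB1, HSP90AB1, MT-CO1 and HSP90AA1. The comparison, the lists and this rule were chosen with earlier results of these data known, so list counts are descriptions. Promoter windows are RefSeq's, matched by symbol. Where a list has members under the filter, counts are over the members tested. Some genes of the lists are not reported here.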

Additional observations from a re-analysis of the deposited data

Results flagged for a closer look

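For 5 named genes the irradiated library differed from the dark one in opposite directions in vehicle cells (lower) and in 1-S cells (higher), by at least 1.2-fold each. This opposite movement was not tested in itself, and where the difference of the light responses is a term, in the edgeR model over 8 libraries, 0 genes were called. Values are log2 differences between the light response in 1-S and in vehicle cells. CSF2, a myeloid growth factor, had a difference of 1.67 (197 and 125 reads in vehicle dark and UV-A, 19 and 36 in 1-S dark and UV-A). IL1A, a cytokine, had 1.34 (16, 8, 48 and 58 reads in the same order). HEY1, a Notch target, had 1.00 (45, 30, 226 and 281 reads). NUPR1 had 0.95 (56, 34, 946 and 1032 reads) and EGR2, an immediate-early factor, had 0.86 (22, 14, 146 and 158 reads). In IL1A, HEY1, NUPR1 and EGR2 the vehicle counts were 56 or fewer reads.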

How the results depend on the processing

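Of the alternatives run, those that moved a count of calls by over 1.5 times are given with their values. The main count of 5887 called genes became 3889 of 11686 with all 8 libraries and the round as replicate block, of which 3873 were also called in the main fit, and 3418 with DESeq2. The libraries of a round share cell passage, count table and compound, which the replicate block cannot tell apart. Only the vehicle treatments are repeated between the rounds. It stayed between 4186 and 5897 with median-of-ratios scaling, limma-trend, no filter, a filter at 5 FPKM, no mitochondrial genes and a likelihood ratio test. The 1855 genes at least 2-fold apart became 1053 on log2(FPKM + 1), 10882 with no filter, 875 with a filter at 5 FPKM and 742 at 3-fold. Genes called for departure from additivity were 0 with edgeR and 8 with limma. The 451 genes called between 1-S and 1-SO became 334 with limma. The balance of higher and lower calls moved: 2907 and 2980 in the main fit became 2603 and 2125 with limma and 1947 and 1942 over 8 libraries, and the 1019 and 836 past 2-fold became 423 and 452 with the filter at 5 FPKM. Of 244 named genes 29 lost their call over 8 libraries (of 242 that could be fitted), 31 with DESeq2 and 17 with limma. Leaving out a library leaves no residual degree of freedom, so leave-one-out fits give no test and were not run. Depth limits ratios of genes near 0 in vehicle dark, such as CRYAB and CCL26 at 1 read each. The light term was added after the data were seen.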
